A study of Mus musculus with 4 samples.

Results

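The mouse genes whose symbol is Zfp9 with a further pair of digits, most of them zinc finger genes of the C2H2 type, were compared between pre-ALT and post-ALT embryonic stem cells. The rule used the symbol alone, though this set of symbols was picked with earlier results of these data known, and 65 of the 53379 gene rows of the files matched, for 64 symbols, since *Zfp935* stands in 2 rows. The cells were of DKO741, a single *Terc*-/- line made from E14 mouse embryonic stem cells by targeting both alleles of the telomerase RNA gene, so that the telomerase knockout is shared by both groups. Bulk RNA was taken from the line at PD100, when the cells were pre-ALT, and at PD800, when they were post-ALT and kept their telomeres without telomerase, with 2 libraries in each group. The labels put the harvests at passages of the same numbers, and the protocol text describes harvest without feeder cells. Because there was 1 line, and time in culture and ALT state changed together, the comparison is between these libraries and the contributions of both cannot be told apart. The molecule counted was the gene's RNA, and in bulk cells fewer cells expressing a gene cannot be told apart from less RNA per cell.

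C2H2 zinc finger proteins bind DNA through arrays of small finger domains joined by a conserved linker. In many mouse members of the family a KRAB domain at the N-terminus recruits TRIM28, which brings in the histone methyltransferase SETDB1 and heterochromatin proteins, so that the bound DNA is silenced. Such genes arose recently by local duplication, lie in clusters of near copies, and in mouse embryonic stem cells are best known as silencers of retrotransposons, the clusters on chromosomes 2 and 4 among them. For most single members no individual target is given in the sources used here.

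A finger unit with the linker on either side is shown first, as an example of the repeated sequence from a pair of members called higher. One unit of *Zfp971* (chr2:178032985-178033085, plus strand) and its closest match in *Zfp966* (chr2:175921284-175921384, minus strand) were read from the coding exons of GENCODE M21 on GRCm38, 5′ to 3′, with the linker that precedes and the linker that follows the finger in capitals. From linker to linker the unit measures 84 bases.
Zfp971: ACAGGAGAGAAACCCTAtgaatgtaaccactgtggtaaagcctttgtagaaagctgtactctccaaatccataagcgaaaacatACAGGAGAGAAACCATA
Zfp966: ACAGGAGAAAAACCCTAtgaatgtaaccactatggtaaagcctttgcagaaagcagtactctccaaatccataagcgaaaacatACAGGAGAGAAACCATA
The units differed at 4 bases (96.0% identical). Read in frame from the linker, a codon tgt (cysteine) of *Zfp971* is tat (tyrosine) in *Zfp966*. That cysteine belongs to the C2H2 pattern, so the *Zfp966* unit shown is not a full C2H2 finger by its sequence. The linker was searched on the coding strand of every annotated transcript as the 17 letters ACNGGNGANAANCCNTA, where N is any base, so that 12 bases are fixed and every codon choice for the conserved linker is covered. At least 1 copy was present in 63 of the 65 members (96.9%), against 217 of 336 other numbered Zfp genes (64.6%) and 437 of 21865 protein-coding genes (2.0%). The members held a median of 7 copies and at most 14, in *Zfp950*. No copy was found in *Zfp940* or *Zfp957*.

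Promoters are shown next for 3 members of the chromosome 2 cluster and 2 of the chromosome 4 cluster, the clusters that hold 16 of the 19 members called higher at PD800. Each stretch runs 250 bases before to 50 bases after the annotated start, and comes from RefSeq on GRCm38.p6, whose table held a promoter for 54 of the 64 symbols. The coordinates are chr2:178023034-178023333 (plus) for *Zfp971*, chr2:175931051-175931350 (minus) for *Zfp966*, chr2:178078376-178078675 (minus) for *Zfp931*, chr4:145670447-145670746 (plus) for *Zfp980* and chr4:147553027-147553326 (plus) for *Zfp985*. Capitals mark the letters CCAAT, the CCAAT box, or their reverse complement ATTGG.
Zfp971: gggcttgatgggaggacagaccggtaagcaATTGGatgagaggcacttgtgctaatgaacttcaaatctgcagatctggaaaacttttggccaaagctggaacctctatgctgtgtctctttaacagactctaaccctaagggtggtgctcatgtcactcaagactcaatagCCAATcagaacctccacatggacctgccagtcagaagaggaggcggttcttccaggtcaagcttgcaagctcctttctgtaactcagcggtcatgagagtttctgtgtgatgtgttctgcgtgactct
Zfp966: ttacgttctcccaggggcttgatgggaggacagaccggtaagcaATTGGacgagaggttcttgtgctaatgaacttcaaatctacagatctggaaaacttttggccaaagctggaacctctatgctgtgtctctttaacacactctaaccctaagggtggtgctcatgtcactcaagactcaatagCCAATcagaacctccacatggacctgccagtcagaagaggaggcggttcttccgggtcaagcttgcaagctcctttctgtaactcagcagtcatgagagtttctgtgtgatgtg
Zfp931: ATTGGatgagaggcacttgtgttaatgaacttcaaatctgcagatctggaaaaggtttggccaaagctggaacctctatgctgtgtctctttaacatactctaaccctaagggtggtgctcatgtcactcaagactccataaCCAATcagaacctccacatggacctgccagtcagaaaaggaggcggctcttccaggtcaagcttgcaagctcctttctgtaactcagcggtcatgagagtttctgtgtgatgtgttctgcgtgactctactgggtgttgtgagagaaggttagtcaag
Zfp980: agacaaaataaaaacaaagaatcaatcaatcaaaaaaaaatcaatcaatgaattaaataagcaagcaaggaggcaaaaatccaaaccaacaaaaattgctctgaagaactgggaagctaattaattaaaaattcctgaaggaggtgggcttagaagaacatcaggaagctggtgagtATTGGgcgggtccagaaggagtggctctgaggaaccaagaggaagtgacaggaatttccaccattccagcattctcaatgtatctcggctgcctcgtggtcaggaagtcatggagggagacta
Zfp985: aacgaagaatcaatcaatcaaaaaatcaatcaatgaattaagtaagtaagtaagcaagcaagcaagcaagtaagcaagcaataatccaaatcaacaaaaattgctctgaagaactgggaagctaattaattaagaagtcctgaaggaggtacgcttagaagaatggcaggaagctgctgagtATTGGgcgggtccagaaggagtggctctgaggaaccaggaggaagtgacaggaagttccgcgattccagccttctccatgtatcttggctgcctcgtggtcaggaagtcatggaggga
Identity was counted from the bases changed, added or lost when one 300-base window is turned into another from end to end. By this measure the chromosome 2 promoters had a median of 76.2% over 36 pairs (50% to 100%), lowest between *Zfp973* and *Zfp931*. On chromosome 4 the median was 47.3% over 45 pairs (38.7% to 89.7%). A shifted annotated start lowers the value. *Zfp971* and *Zfp931*, whose printed letters are largely the same at shifted places, scored 77.3%. The value for unrelated windows was not computed, so low values cannot be read as shared sequence. A CCAAT box on either strand lay in 41 of 54 member promoters (75.9%), against 37.4% of all 32851 promoters of the table. By cluster it lay in 9 of 9 on chromosome 2, 8 of 10 on chromosome 4 and 3 of 10 on chromosome 17. On chromosomes 7, 8 and 13 it lay in 4 of 4, 2 of 2 and 1 of 1. The GC box GGGCGG, on either strand, was found in 35.2% of member promoters and in 35.7% of all promoters. On chromosomes 2, 4 and 17 it was found in 0 of 9, 7 of 10 and 7 of 10. In *Zfp980* and *Zfp985* both motifs share bases, as they did in 8 member promoters. These matches describe letters and not bound sites.

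Of the 65 rows, 64 were annotated as protein-coding and *Zfp939* as a pseudogene, on 12 chromosomes. Levels are given as CPM, counts scaled by library size and the TMM factor. Total expected counts lay between 32454121 and 38492149, so that 3 counts, the floor of detection, corresponded to 0.0743 to 0.0934 CPM, which covers counting error only. 61 members passed edgeR's filter on low counts. Of the other 4, *Zfp967* and *Zfp969* were at 0 counts in every library. Their transcripts were 100% identical to *Zfp968*, which was counted, so the levels of these 3 genes cannot be told apart. *Zfp968* in turn was 100% identical to *Zfp966* over 98.7% of its longest transcript. *Zfp957* stayed at or under 0.0300 CPM, and one row of *Zfp935* had 0.165 CPM in PD100 replicate 2 and 0 in the other libraries. For *Terc*, the knocked-out gene, PD100 replicate 1 held 1 expected count and the other libraries 0.

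More members were higher at PD800 than lower. Calls needed both an adjusted p under 0.01 and more than a 2-fold change. Of the 61 tested members, 19 were called higher (31.1%) and 1 lower (1.64%), in edgeR's quasi-likelihood test, with p-values adjusted by Benjamini-Hochberg over all 19148 tested genes. Among all tested genes, 6.28% were called higher and 8.81% lower. The median log2 fold change was 0.66 over the members and 0.01 over all tested genes. At an adjusted p under 0.01 and any fold, 30 members passed, 27 of them higher and 3 lower, where the background was 28.5% of all genes (13.1% higher and 15.4% lower). Both PD800 libraries lay above both PD100 libraries in 47 members, and below in 7, with backgrounds of 37.4% and 36.3%. The summed level of all members was 1453 and 1145 CPM in the PD100 replicates 1 and 2, and 2412 and 2227 CPM in the PD800 replicates, so that the groups did not overlap.

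**Figure D1:**
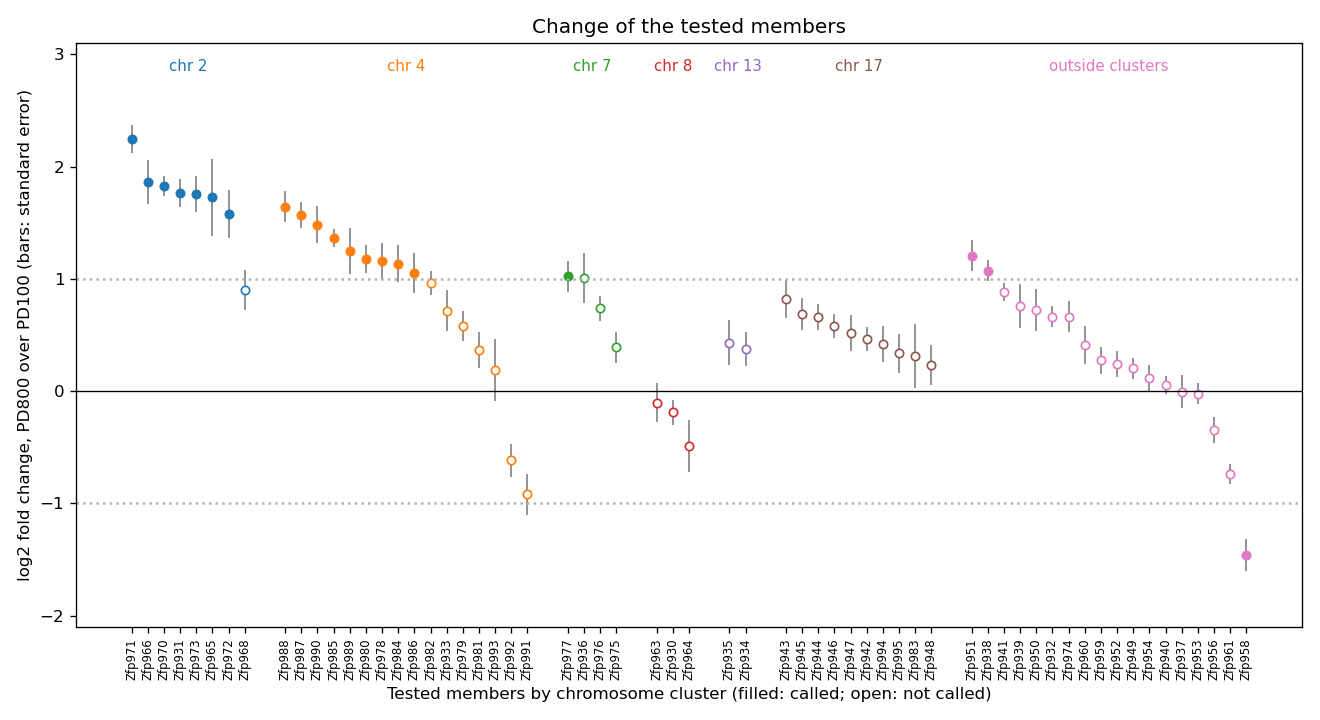
The log2 fold change (y axis, PD800 over PD100) of each of the 61 tested members, grouped by chromosome cluster and ordered by size, with bars of 1 standard error from edgeR. Filled points are the 19 members called higher and the 1 called lower, and dotted lines mark a fold of 2. The filled points gather in the chromosome 2 and 4 clusters.

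The PD100 libraries differed from each other in these genes. PD100 replicate 1 lay above replicate 2 in 57 of 61 tested members (93.4%), with a median log2 ratio of 0.31. Over all tested genes this held for 50.1%, where the median was 0.00. In PD800, replicate 1 was above replicate 2 in 46 members, with a median log2 ratio of 0.09. Without PD100 replicate 2, 13 members were called higher, and the median log2 fold change fell to 0.47; *Zfp951*, *Zfp977*, *Zfp978*, *Zfp980*, *Zfp984* and *Zfp986* lost their calls. Without PD100 replicate 1, 23 were called higher. Leaving out PD800 replicate 1 gave 16, with *Zfp977*, *Zfp986* and *Zfp989* lost, and leaving out PD800 replicate 2 gave 17, with *Zfp965*, *Zfp972* and *Zfp986* lost and *Zfp982* gained. The part of this library difference in the results was not tested beyond these values.

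Other finger genes gave a frame for the members. Of the other numbered Zfp genes, 318 of 336 were tested, 26 were called higher (8.18%) and 5 lower (1.57%), with a median log2 fold change of 0.33. Among the 342 tested genes with at least 2 linker copies that are no members, 54 were called higher (15.8%) and 4 lower, with a median of 0.52. This set takes in neighbours of the clusters described below. Around the chromosome 2 cluster, 30 of 45 other tested genes with a linker were called higher, and around the chromosome 4 cluster 4 of 7. How many of the 54 these make up was not counted. The 16 calls in the clusters on chromosomes 2 and 4, of 24 tested members, made up most of the 19. Elsewhere, 3 of 37 tested members were called higher (8.11%), a share near the background of all genes. Their median log2 fold change was 0.41, however, with 29 positive and 8 negative. Both PD800 libraries lay above both PD100 libraries in 26 of them and below in 5, with backgrounds of 37.4% and 36.3%.

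Members were put in a cluster where neighbouring starts lay within 2 Mb, and 6 clusters of at least 3 members held 46 of the 65 rows. The chromosome 2 cluster has 10 members over 2.71 Mb (chr2:175372436-178078476), 3.93 to 6.63 Mb from the last annotated base of the chromosome. 8 were tested, 7 were called higher and 0 lower, and all 8 lay above PD100 in both PD800 libraries. Their median log2 fold change was 1.76. The summed level of the cluster was 66.0 and 52.2 CPM in PD100 and 223 and 204 CPM in PD800, a 3.61-fold rise of the group means.

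*Zfp971* had 9.003 and 7.29 CPM in the PD100 replicates 1 and 2, and 39.9 and 37.5 CPM in the PD800 replicates. The groups were far apart, and this was the largest log2 fold change of the tested members, at 2.25 ± 0.12 (SE; adjusted p = 9.61e-05, edgeR). *Zfp970* had 9.26 and 8.62 CPM, and 32.4 and 30.9 CPM at PD800. Its replicates were close together in both groups, and the log2 fold change was 1.82 ± 0.09 (adjusted p = 7.7e-05, edgeR). *Zfp931*, at the end of the cluster nearest the telomere, had 5.97 and 5.48 CPM, and 21.1 and 17.8 CPM. It rose by 1.76 ± 0.12 in log2 (adjusted p = 0.000198, edgeR).

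*Zfp966* was at 25.1 and 16.6 CPM in PD100 and at 80.5 and 71.9 CPM in PD800. The PD100 libraries differed between themselves, but less than from PD800, and the log2 fold change was 1.86 ± 0.19 (adjusted p = 0.000777, edgeR). *Zfp973* had 11.7 and 8.96 CPM, and 38.3 and 31.6 CPM, with a log2 fold change of 1.76 ± 0.16 (adjusted p = 0.000487, edgeR). *Zfp972* had few counts, at 0.792 and 0.763 CPM against 2.20 and 2.42 CPM (log2 fold change 1.58 ± 0.22, adjusted p = 0.00216, edgeR), and lost its call without PD800 replicate 2. In these 3 genes the PD800 libraries all lay above the PD100 libraries. *Zfp965* had 1.44 and 1.35 CPM, and 3.18 and 6.11 CPM. Here the PD800 libraries differed from each other, and the log2 fold change of 1.73 ± 0.34 (adjusted p = 0.00875, edgeR) lost its call without PD800 replicate 2, at 1.18. Its whole longest transcript was 100% identical to one of *Zfp973*, so the values of the pair depend on how RSEM divided shared reads. *Zfp968*, at 2.73 and 3.08 against 4.85 and 5.99 CPM, passed the adjusted p (0.00845, edgeR) at a log2 fold change of 0.90, under the fold threshold. Its longest transcript was 100% identical to one of *Zfp966* over 98.7% of its length. The values of *Zfp966* and *Zfp968* thus also depend on how RSEM divided shared reads.

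The rise was shared with other genes around the chromosome 2 cluster. From 1 Mb before the first member to 1 Mb after the last, 59 other genes were tested, of which 38 were called higher and 0 lower, with a median log2 fold change of 1.74. Those with a linker numbered 45, with 30 called higher and a median of 1.78. The 14 without a linker had 8 called higher and a median of 1.43, though at least *Gm14327* and *Gm14435* among them had counts that were not whole. Among the 10 of these that are protein-coding, 5 were called higher. The 3 neighbours with the highest mean CPM were *Gm4631*, *Nelfcd* and *Prelid3b*, and all were called higher. *Gm4631* rose by 1.68 ± 0.08 in log2 (adjusted p = 7.99e-05, edgeR). *Nelfcd*, which codes for a subunit of the negative elongation factor, rose by 1.75 ± 0.09 in log2, from 33.9 and 37.6 CPM in PD100 (adjusted p = 7.72e-05, edgeR). *Prelid3b*, a lipid transfer protein gene, changed by 1.10 ± 0.07 (adjusted p = 0.000169, edgeR), and *Sycp2*, of the synaptonemal complex, by 1.88 ± 0.15 (adjusted p = 0.000302, edgeR). *Ctsz*, a cathepsin gene in the same window, did not pass (0.21 ± 0.10, adjusted p = 0.133, edgeR). By distance from the chromosome end, genes without a linker had a median log2 fold change of -0.77 in the last Mb, 1.38 at 3 to 4 Mb, 1.10 at 7 to 8 Mb, 1.00 at 9 to 10 Mb and 0.34 at 11 to 12 Mb. The bins from 3 to 10 Mb held 1 to 9 such genes each. DNA copy number of the line was not analysed here.

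**Figure D2:**
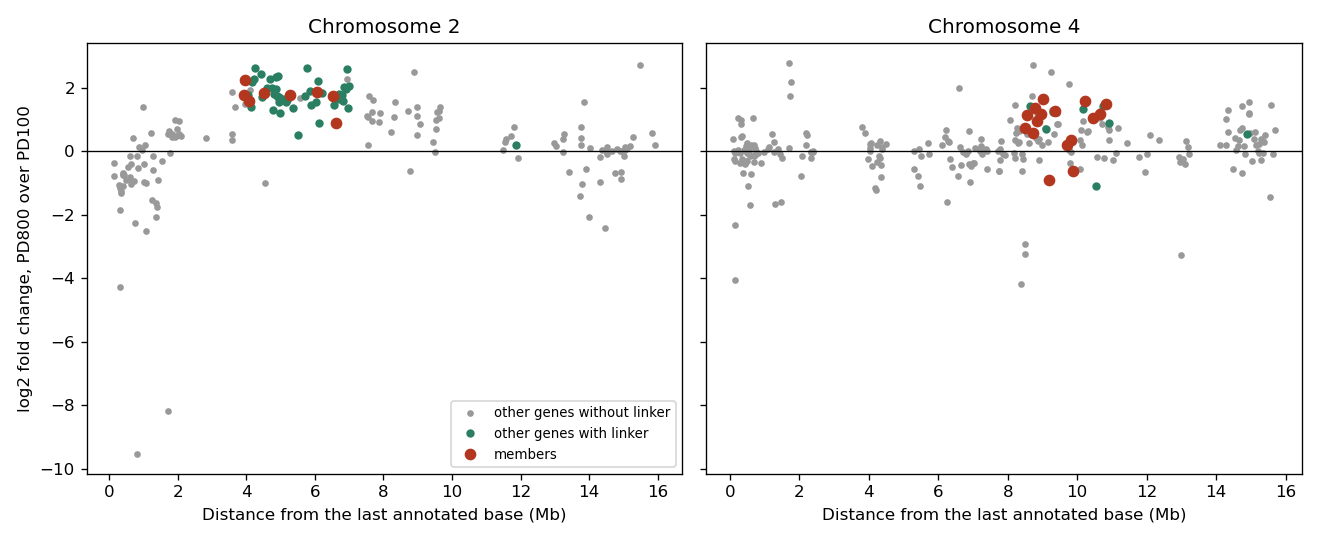
The log2 fold change (y axis, PD800 over PD100) of tested genes against the distance from the last annotated base in Mb (x axis) over the ends of chromosome 2 (left) and chromosome 4 (right), with members in red, other genes with a linker in green and genes without one in grey. On chromosome 2, genes without a linker had a median of 1.00 to 2.27 in each 1 Mb bin from 3 to 10 Mb, and on chromosome 4 a median of 0.34 to 0.74 in the bins from 8 to 11 Mb, with single genes below 0 on both chromosomes.

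The chromosome 4 cluster holds 16 members, all tested, over 2.34 Mb (chr4:145510759-147848366), 8.51 to 10.9 Mb from the last annotated base. 9 were called higher and 0 lower, with a median log2 fold change of 1.09. Their summed level was 703 and 540 CPM in PD100, and 1371 and 1246 CPM in PD800, a 2.11-fold rise of the group means. In per-length units the cluster held the most abundant member, *Zfp990*, with a mean of 52.2 TPM over the 4 libraries.

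*Zfp990* had 136 and 98.6 CPM in PD100 and 350 and 306 CPM in PD800. The groups did not overlap, and the log2 fold change was 1.48 ± 0.17 (adjusted p = 0.000996, edgeR). *Zfp988* had 38.9 and 30.0 CPM, and 113 and 103 CPM, the largest change of the cluster (1.64 ± 0.14, adjusted p = 0.000362, edgeR). *Zfp987* was at 28.8 and 23.1 CPM, and 78.4 and 75.8 CPM (1.57 ± 0.12, adjusted p = 0.000264, edgeR). *Zfp987* matched *Gm8935* at 99.4% over 98.0% of its longest transcript, so its reads could not be told from that gene's with certainty. *Zfp985* had the smallest standard error of the cluster, at 40.4 and 39.7 CPM, and 106 and 99.8 CPM. Its PD100 libraries were nearly equal, and the log2 fold change was 1.36 ± 0.08 (adjusted p = 0.000107, edgeR).

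*Zfp989* had 9.32 and 7.50 CPM in PD100 and 23.8 and 16.3 CPM in PD800. Its PD800 libraries were apart from each other, and the change of 1.25 ± 0.21 (adjusted p = 0.0043, edgeR) lost its call without PD800 replicate 1. *Zfp980* had 106 and 83.6 CPM, and 220 and 210 CPM (1.18 ± 0.12, adjusted p = 0.000831, edgeR). *Zfp978* was at 49.3 and 35.1 CPM, and 99.1 and 89.1 CPM (1.16 ± 0.16, adjusted p = 0.00253, edgeR). Both were also among the members with the highest TPM, at 26.7 for *Zfp980* and 41.6 for *Zfp978*. *Zfp979*, at a mean of 33.8 TPM, had 103 and 78.9 CPM, and 140 and 132 CPM, but missed the adjusted p threshold (0.58 ± 0.13, adjusted p = 0.0142, edgeR). *Zfp984* and *Zfp986* were the other members called higher, with log2 fold changes of 1.14 and 1.05.

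Not every member of the chromosome 4 cluster was higher. *Zfp991* had 23.4 and 15.98 CPM in PD100 and 10.3 and 10.6 CPM in PD800, below PD100 in both libraries, and passed the adjusted p at a log2 fold change of -0.92 ± 0.18 (adjusted p = 0.00917, edgeR), under the fold threshold. *Zfp992*, 99.3% identical to *Zfp991* over part of its transcript, had a log2 fold change of -0.62 (adjusted p = 0.0167, edgeR). *Zfp993*, 99.7% identical to *Zfp991*, had 1.55 and 0.996 CPM, and 1.52 and 1.38 CPM, with overlapping groups (0.19 ± 0.28, adjusted p = 0.617, edgeR). These 3 genes share sequence, so the division of reads among them is uncertain.

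Around the chromosome 4 cluster, fewer of the other genes were called higher. Of 78 other tested genes in the same kind of window, 9 were called higher and 4 lower, with a median log2 fold change of 0.35. The 7 with a linker had 4 called higher, 1 lower and a median of 1.22. The 29 protein-coding genes without a linker had 1 called higher, 3 lower and a median of -0.06. The 3 neighbours with the highest mean CPM were *Tardbp*, *Mtor* and *Vps13d*, with log2 fold changes of 0.00, 0.31 and 0.72, and 0 of them were called. With non-coding genes counted in, the genes without a linker had medians of 0.34, 0.74 and 0.64 in the bins at 8 to 9, 9 to 10 and 10 to 11 Mb from the end. How much of the change of each cluster is shared with its surroundings was not tested beyond these values.

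**Figure D3:**
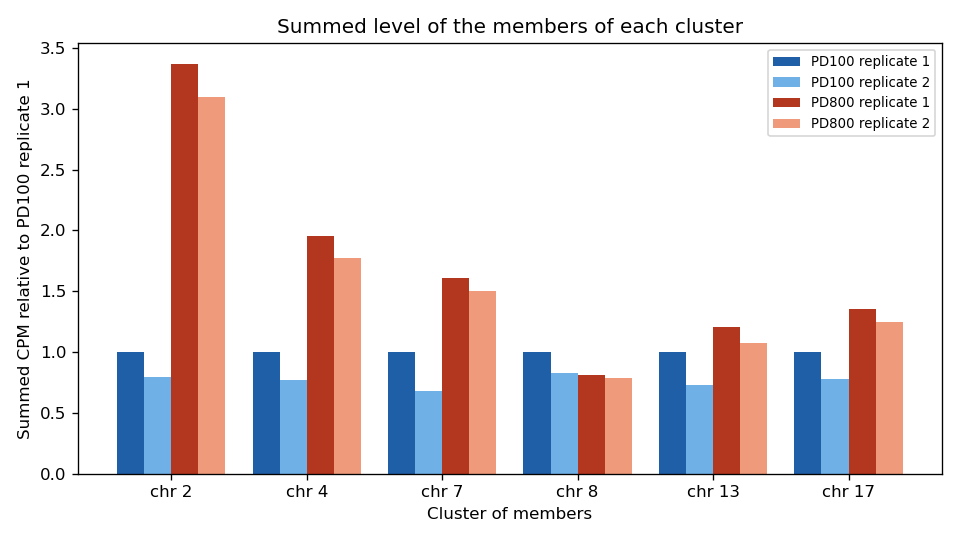
The summed CPM of all members of each of the 6 clusters in each library, as bars relative to PD100 replicate 1 (y axis from 0). In CPM both PD800 bars stand above both PD100 bars in every cluster but that of chromosome 8, while in summed TPM the groups overlap on chromosomes 13 (11.2 and 7.62 in PD100, 10.6 and 8.68 in PD800) and 17 (35.5 and 25.9, 38.8 and 35.2).

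The remaining clusters changed less. On chromosome 7, 4 members were tested and *Zfp977* was called higher (1.02 ± 0.14, adjusted p = 0.00197, edgeR), with 13.7 and 10.5 CPM in PD100 and 25.0 and 24.1 CPM in PD800. *Zfp936*, with 76.7 and 46.6 CPM, and 129 and 119 CPM, showed groups that did not overlap and the same size of change, but it missed the adjusted p threshold (1.01 ± 0.22, adjusted p = 0.0129, edgeR). Its PD100 libraries were far apart. On chromosome 17, all 10 tested members had a positive fold change (0.23 to 0.82, with *Zfp948* at 0.00 without PD100 replicate 2), 3 passed the adjusted p under 0.01 and 0 were called, and the median log2 fold change was 0.49. The 21 other genes of that window that are no finger genes by symbol had a median of -0.42, and 0 were called higher and 4 lower. On chromosome 13, 2 members were tested, with log2 fold changes of 0.43 and 0.37, and neither passed. The 3 members on chromosome 8 (*Zfp930*, *Zfp963* and *Zfp964*) had negative values (median log2 fold change -0.19), and 0 of 3 passed the test. Among 62 neighbours there, 12 were called lower and 0 higher, with a median of -0.59.

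Outside the clusters, 18 of 19 members were tested. *Zfp958*, on chromosome 8 and far from the cluster there, was the only member called lower. It had 29.8 and 22.9 CPM in PD100 and 9.54 and 9.62 CPM in PD800, with the PD800 libraries nearly equal and no overlap, and a log2 fold change of -1.46 ± 0.14 (adjusted p = 0.000615, edgeR). *Zfp961*, one of the more abundant members with a mean of 27.3 TPM, had 93.1 and 86.1 CPM, and 56.4 and 50.9 CPM. It passed the adjusted p at a change under 2-fold (-0.74 ± 0.09, adjusted p = 0.00129, edgeR). *Zfp951* and *Zfp938* were called higher, with log2 fold changes of 1.21 and 1.07, and both had whole counts in all libraries. *Zfp932*, which is known to bind and silence endogenous retroviruses, was at 17.8 and 15.7 CPM, and 27.0 and 26.1 CPM, and passed the adjusted p under 2-fold (0.66 ± 0.09, adjusted p = 0.00247, edgeR).

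The members with the highest adjusted p were *Zfp937*, *Zfp953* and *Zfp963*, beside *Zfp993* of the chromosome 4 cluster. *Zfp937* had 8.97 and 7.80 CPM in PD100 and 9.29 and 7.39 CPM in PD800, with overlapping groups (-0.01 ± 0.15 in log2, adjusted p = 0.982, edgeR). *Zfp953* was at 13.4 and 13.2 CPM, and 13.6 and 12.6 CPM, and also overlapped (-0.02 ± 0.09, adjusted p = 0.865, edgeR). *Zfp963*, of the chromosome 8 cluster, had 3.43 and 2.91 CPM, and 3.01 and 2.92 CPM (-0.10 ± 0.18, adjusted p = 0.672, edgeR). In these genes a difference was not detectable at this depth and number of libraries.

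**Figure D4:**
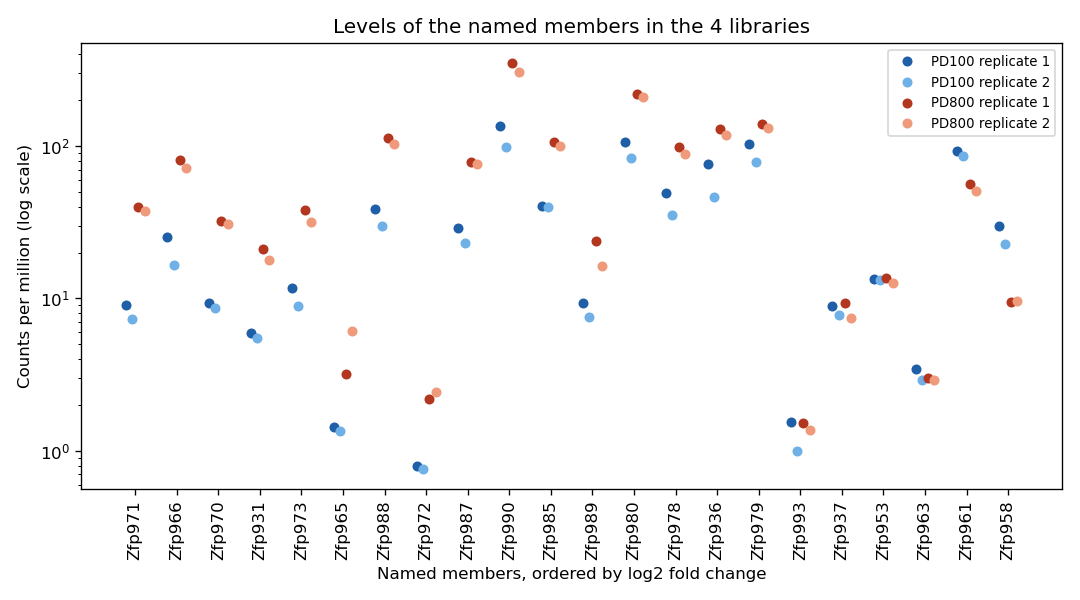
The level in CPM (log y axis) of the named members in each library, ordered from the largest positive to the most negative log2 fold change, with PD100 in blue and PD800 in red. From *Zfp971* to *Zfp979* both red points lie above both blue points, from *Zfp993* to *Zfp963* the groups overlap, and in *Zfp961* and *Zfp958* the red points lie below.

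Reads of near copies were divided between genes, and this touches most of the members. RSEM gave 43 of the 65 rows a count that was not whole (by more than 0.005) in at least 1 library, 68.9% of tested members against 34.5% of all tested genes. Among the 19 tested members with whole counts, 3 were called higher (*Zfp938*, *Zfp951* and *Zfp977*) and 1 lower, with a median log2 fold change of 0.31. Among the 42 with counts that were not whole, 16 were called higher and 0 lower, with a median of 0.75. These 16 are the calls of the chromosome 2 and 4 clusters, and no member elsewhere with such counts was called higher. The 8 tested members of the chromosome 2 cluster all had counts that were not whole, as did every chromosome 4 cluster member but *Zfp933*. Such counts and a place in these clusters thus largely went together. 12 members matched another gene at 95% identity or more over at least 80% of the longest transcript, 9 of them tested and 6 called higher. Without them, 13 members were called higher. The part of read division in the fold changes was not tested.

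The machinery through which KRAB zinc finger proteins act was described by a list of 23 corepressor genes, all tested. 0 were called higher and 1 lower, *Dnmt3b* (-1.76 ± 0.08, adjusted p = 6.55e-05, edgeR), a DNA methyltransferase. The list held 5 genes past an adjusted p under 0.01, and its median log2 fold change was 0.03. *Trim28*, the corepressor that the KRAB domain recruits, had 904 and 1073 CPM in PD100 and 1191 and 1293 CPM in PD800, and missed the threshold (0.33 ± 0.11, adjusted p = 0.0573, edgeR). *Setdb1*, which codes for the methyltransferase it brings in, had 117 and 123 CPM, and 207 and 207 CPM. Both groups were tight, and it passed at a change under 2-fold (0.79 ± 0.07, adjusted p = 0.000494, edgeR).

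Cell type markers moved between the groups as well. All 8 pluripotent markers were tested, 2 were called higher (*Nanog* and *Esrrb*) and 0 lower. In all 8, both PD800 libraries lay above both PD100 libraries. Their summed level was 2027 and 2328 CPM in PD100 and 3708 and 3814 CPM in PD800. *Pou5f1*, which marks embryonic stem cells, was at 466.7 and 503.3 CPM in PD100 and 601.5 and 634.6 CPM in PD800. The 6 primitive endoderm markers were all called lower, with a summed level of 121 to 141 CPM in PD100 and 10.4 to 10.8 CPM in PD800. Of the 6 fibroblast markers, which would mark feeder cells, 4 were called lower, with sums of 49.0 to 71.1 CPM in PD100 and 14.4 to 15.6 CPM in PD800. The 2-cell-like list of 7 had 6 tested, 2 called higher and 4 lower. *Tcstv1* went from 0.126 and 0.136 CPM to 13.4 and 10.04 CPM, and *Tcstv3* from 0.341 and 0.366 CPM to 15.8 and 11.2 CPM. The 4 called lower, *Zscan4c*, *Zscan4d*, *Zscan4f* and *Usp17lc*, had 11.98 to 224 expected counts in the PD100 libraries and 0 to 7.87 in the PD800 libraries, where *Usp17lc* was at 0 in both. The summed level of the list, 9.96 to 12.2 CPM in PD100 and 21.3 to 29.5 CPM in PD800, was made up in PD800 almost wholly of *Tcstv1* and *Tcstv3*. Among the defining markers, *Zscan4c*, *Zscan4d* and *Zscan4f* were each at 0 in 1 PD800 library. The part of these lists in the members' changes was not tested.

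Some other tests of the same comparison gave fewer calls. Testing in the model for a fold over 2 kept 7 of the 19 members called higher, *Zfp931*, *Zfp970*, *Zfp971*, *Zfp973*, *Zfp985*, *Zfp987* and *Zfp988*. With limma on log2(TPM + 1), 5 were kept, *Zfp931*, *Zfp970*, *Zfp971*, *Zfp985* and *Zfp987*, and *Zfp958* lost its call under both of these settings. In a design of 2 against 2, no exact permutation test can reach a p below 0.333, so the tests rest on the spread pooled over genes.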

How the data were processed

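The authors sequenced RNA of biological duplicates by 101 base paired-end reads, aligned to mm10 with STAR 2.5.3a, and deposited RSEM 1.3.0 tables with an expected count and a TPM value for each gene and library, as the methods and the submitters' processing notes give it. The deposited expected counts are not scaled, and in them RSEM splits reads with several matching genes. The deposited TPM values are scaled for length and to a common total per library. The deposited FPKM values were not used. The annotation release is not given in the sources used here, and 53274 of 53379 gene identifiers were found in GENCODE M21. What separated the duplicates (cultures, extractions) is not stated in the labels, so p-values measure only the spread between these libraries.

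Expected counts were rounded. In edgeR 4.0.16 (R 4.3.3), low genes were removed by filterByExpr (minimum count 10), followed by TMM factors, the quasi-likelihood test and Benjamini-Hochberg adjustment over 19148 genes. The fit was tested on simulated data. Clusters joined members at most 2 Mb apart, closest genes came from blastn 2.17.0, and sequences from RefSeq and GENCODE. Alternatives were DESeq2 1.42.0, other normalisations, no filter, limma 3.58.1 on log2(TPM + 1) and log2(TPM + 0.1), a test of the fold itself, other thresholds, the replicate number as a block and leaving out each library. Members with values in each library were up to 12 called higher and lower with the largest changes at a mean of at least 1 CPM, the 6 with the highest TPM and the 4 with the highest adjusted p. Neighbours were named for the 3 highest mean CPM of a window. *Zfp968*, *Zfp977*, *Zfp991*, *Zfp992*, *Zfp932*, *Zfp808*, *Sycp2* and *Ctsz* were added after their values were seen, as were the promoters, motifs and finger units shown. Members and lists were chosen with earlier results of these data known. Beyond the codon named for the finger units, protein sequences were not analysed here.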

Additional observations from a re-analysis of the deposited data

How the results depend on the processing

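DESeq2, DESeq2's size factors, upper-quartile normalisation and no expression filter kept all 19 members called higher and the 1 called lower. Members called higher numbered 5 with limma on log2(TPM + 1), 6 on log2(TPM + 0.1), 7 when the fold over 2 was tested in the model and 36 at an adjusted p under 0.05 without a fold threshold. Those called lower numbered 0, 0, 0 and 4. Other numbered Zfp genes called higher went from 26 to 5, 8, 8 and 138, and those called lower from 5 to 3 with limma on log2(TPM + 1), 3 in the fold test and 26 at 0.05. Corepressor genes at 0.05 numbered 6 higher and 3 lower. The members' median of 0.66 was 0.30 and 0.37 in the limma fits, whose all-gene medians were -0.12 and -0.21, so that the members lay 0.42 and 0.59 above them (0.65 in the counts). The cause was not tested. Leaving out each library in turn gave 13 to 23 members higher and 1 to 2 lower (2 without PD100 replicate 2, with *Zfp991*), 21 to 33 and 4 to 7 other Zfp genes, 0 to 1 corepressor genes higher, and a member median of 0.47 to 0.79. In those fits the lone library of a group was assumed to vary like the other group. Chosen after seeing the data, leaving out the chromosome 2 cluster gave 12 members higher, and leaving out members with counts that were not whole gave 3, both by construction from fewer members. The replicate numbers pair nothing in the labels. Deviations of same-numbered libraries correlated at 0.265, and with the number as a block 20 members were called higher (*Zfp936* was added) and 1 lower. Over the 12 alternative fits, 11 of the 61 tested members changed sign in at least 1 (counted after seeing the data), among them 0 called members and 0 past an adjusted p under 0.01. Both limma fits turned *Zfp933* (0.72 to -0.04 and -0.05), *Zfp934*, *Zfp940*, *Zfp952*, *Zfp954*, *Zfp959* and *Zfp993*. Leaving out a library turned *Zfp948*, *Zfp954* and *Zfp993* (PD100 replicate 2), *Zfp937* and *Zfp963* (PD100 replicate 1), and *Zfp937* and *Zfp953* (PD800 replicate 2). Upper-quartile normalisation turned *Zfp937*.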

Other observations

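Beyond the members, the window of the chromosome 13 cluster held 34 other tested genes, of which 5 were called higher and 1 lower, with a median log2 fold change of 0.54. The finger gene *Zfp808*, the closest match of *Zfp934*, rose there by 1.31 in log2. On chromosome 17, 14 other finger genes by symbol were tested, of which 3 were called higher and 0 lower, with a median of 0.31. Around the chromosome 7 cluster, 32 other genes were tested, 2 were called higher and 0 lower, with a median of 0.30.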
